A study of Homo sapiens with 3 samples.

Results

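A set of 19 genes listed as protein coding on the autosomes was close to silent in a parental clone of the 5637 bladder cancer line and carried reads in 2 labelled gemcitabine-resistant clones. These 19 genes had 3 or fewer reads in the library Parental 1 and 20 or more reads in each of Resistant 1 and Resistant 2. They were drawn from the 16974 protein-coding genes outside X and Y of a table of 29960 genes, of which 3916 had 3 or fewer reads in Parental 1, so the 19 made up 0.485% of the genes that could have been chosen. The genes were thus selected on these read counts, so the contrast between the parental and resistant libraries is described below and was not tested.

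The 5637 line is an established epithelial line from a human bladder carcinoma. Parental 1 carries the genotype WT and Resistant 1 and Resistant 2 the genotype Gemcitabine Resistant, all 3 libraries are labelled Untreated, and the cells were grown in RPMI medium with serum. The resistant cells were obtained by exposing the line to gemcitabine, and the libraries came from clones grown out of single cells, so each library stands for 1 clone and a difference between clones cannot be told apart from a difference between the parental and resistant state. With 1 parental and 2 resistant libraries assigned by their labels, no spread could be measured in the parental group. The table also gives the authors' normalized mean for each group, and its columns name 3 clones per group, so those means cover further clones beside the labelled libraries.

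Gemcitabine is a deoxycytidine analog that is taken up by nucleoside transporters, phosphorylated by deoxycytidine kinase and built into DNA, where it stops replication. Cells grown out of a single founder keep much of that founder's pattern of active and silent genes. Genes of specialised tissues, such as liver enzymes or lymphocyte receptors, are commonly silent in epithelial cells and can carry transcripts in tumour-derived lines.

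Library totals were 14475531 reads in Parental 1, 15836788 in Resistant 1 and 17461941 in Resistant 2. At these depths 20 reads correspond to about 1.15 to 1.22 CPM (reads scaled by library size, adjusted by the trimmed mean of M-values, TMM), and the limit of 3 parental reads to 0.214 CPM. The epithelial label held: all 10 epithelial and urothelial markers had reads, with a summed level of 10149 CPM in Parental 1, 7575 in Resistant 1 and 7711 in Resistant 2. The markers of myeloid cells summed to 0.926, 1.71 and 1.49 CPM in the same order, those of endothelium to 0.427, 0.612 and 2.01, and those of neurons to 16.2, 19.2 and 18.8. Fibroblast and muscle markers summed to 175.7, 156.6 and 147.4 CPM, nearly all of it from the collagen genes COL1A1 and COL1A2, while COL3A1 had 0, 0 and 2 reads.

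Genes on in 1 resistant clone alone were counted with the same limits: 2 of the 3916 genes (0.0511%) were on in Resistant 1 with 3 or fewer reads in Resistant 2, and 9 (0.23%) were on in Resistant 2 with 3 or fewer in Resistant 1. In the other direction, 29 of 11501 genes with 20 or more parental reads (0.252%) had 3 or fewer reads in both resistant libraries. Counts are read here as deposited, and 12 of the 19 genes still met the limits when the resistant reads were scaled to the parental depth by TMM or by DESeq2 size factors. The 7 that did not were TNFRSF19, PARP15, TMPRSS11E, BDKRB1, SPNS3, C19orf77 and AC007405.2, which lie near 20 reads in at least 1 resistant library.

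The 19 genes had from 0 to 3 reads in Parental 1, from 20 to 338 in Resistant 1 with a median of 37, and from 20 to 1395 in Resistant 2 with a median of 54. In Parental 1, 3 genes had no read, 6 had 1 read, 3 had 2 reads and 7 had 3 reads. Both resistant libraries had at least 100 reads for 4 genes, SMOC1, SLC26A7, CPS1 and CD22, and fewer than 100 for 11. Per length they were low: the median was 1.51 FPKM (reads scaled by gene length and library total) in Resistant 1 and 1.30 in Resistant 2, against 9.33 and 8.76 for protein-coding genes outside X and Y with 20 or more reads. Of the 19 genes, 8 reached 1 FPKM in both resistant libraries and 6 were under 1 FPKM in both.

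**Figure D1:**
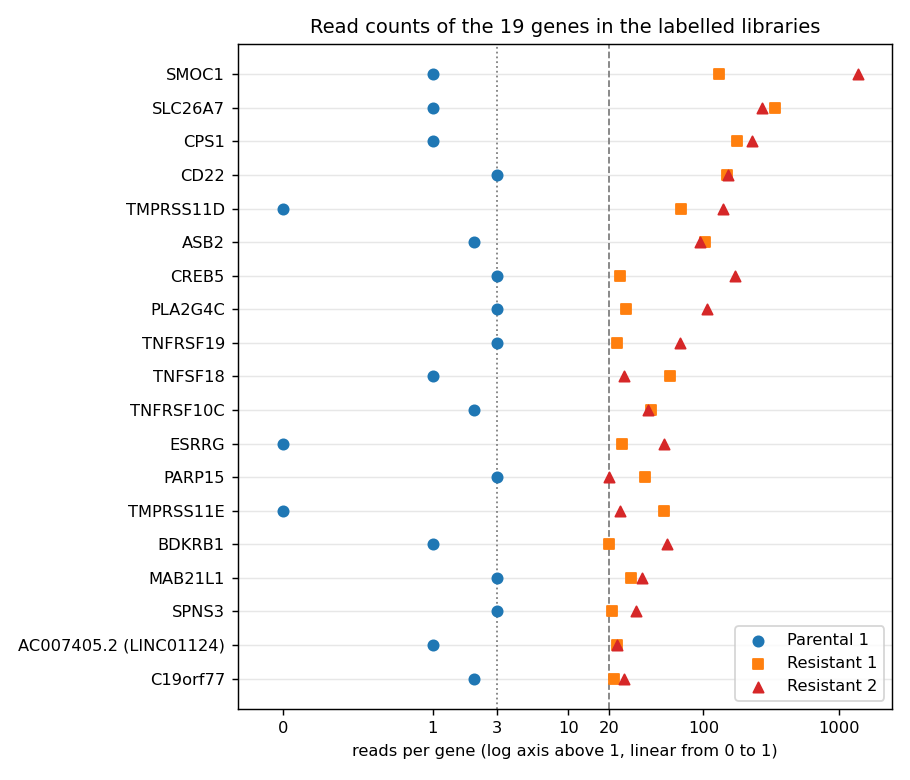
Reads per gene for each of the 19 genes in Parental 1 (circles), Resistant 1 (squares) and Resistant 2 (triangles), on an axis that is logarithmic above 1 and linear from 0 to 1. The dotted line marks 3 reads and the dashed line 20 reads, the limits that chose the genes, and SMOC1 in Resistant 2 lies farthest to the right at 1395 reads.

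SMOC1, a secreted calcium-binding glycoprotein of basement membranes that binds bone morphogenetic protein signalling components, had the most reads in Resistant 2 and the highest resistant group mean of the 19 genes. The gene lies on the plus strand at chr14:70320848-70499083 (hg19). SMOC1 had 1 read in Parental 1, 131 in Resistant 1 and 1395 in Resistant 2. Both resistant clones were far above the parental clone, and they also stood far apart from each other: the CPM in Resistant 2 was 9.96 times that in Resistant 1 (95% exact interval 8.32 to 12.0). The resistant reads of both libraries were 634.5 times the parental level in CPM, with an exact interval from 113.7 to 25078 because the parental count is 1. In bulk RNA, more cells with a transcript and more transcript per cell cannot be told apart. This interval and all others given here cover counting error only and leave out the spread between clones and between libraries of a clone. They can also be too narrow, since reads copied by PCR are not independent molecules. The authors' means for SMOC1 were 11.9 normalized counts in the parental group and 432.6 in the resistant group, the largest log2 ratio of group means among all 16974 protein-coding genes outside X and Y (5.07, with 1 added to each mean). This group ratio rests largely on Resistant 2. The resistant group mean was 0.676 of the scaled mean of Resistant 1 and Resistant 2, near the 0.667 of a group whose rest holds no transcript. The other parental clones averaged 17.4 normalized counts.

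CPS1, PLA2G4C and PARP15 encode enzymes of mitochondrial, lipid or ADP-ribose metabolism. CPS1, the mitochondrial carbamoyl phosphate synthetase of the urea cycle and mainly a liver enzyme, lies at chr2:211342406-211543831. CPS1 had 1 read in Parental 1, 178 in Resistant 1 and 229 in Resistant 2, and the resistant clones were close to each other (Resistant 2 over Resistant 1, 1.20, interval 0.985 to 1.47). Its group means were 7.74 parental and 125.2 resistant. NAGS, which makes the N-acetylglutamate that activates CPS1, was not silent in the parental clone, with 30 reads against 319 and 450 in the resistant clones and group means of 51.4 and 256.1. CAD, which carries the separate cytosolic carbamoyl phosphate synthetase activity of pyrimidine synthesis, had 3387, 5254 and 6229 reads.

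PLA2G4C is a cytosolic phospholipase A2 that does not need calcium and releases fatty acids from membrane phospholipids. PLA2G4C had 3 reads in Parental 1, 27 in Resistant 1 and 106 in Resistant 2, so most of its reads came from Resistant 2. Its group means were 9.53 parental and 42.7 resistant. PARP15, a mono-ADP-ribosyltransferase of the macrodomain PARP group, had 3, 37 and 20 reads. PARP15 was higher in Resistant 1 and sat exactly on the limit of 20 reads in Resistant 2, and its group means were 5.23 and 22.0.

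Both transporters among the 19 genes move ions or lipids across membranes. SLC26A7, an anion exchanger and chloride channel known from kidney, stomach and thyroid, had 1 read in Parental 1, 338 in Resistant 1 and 273 in Resistant 2. It was the gene with the most reads in Resistant 1, and Resistant 2 was at 0.756 of its level (interval 0.642 to 0.889). The group means of SLC26A7 were 12.0 parental and 178.2 resistant. The overlapping gene LRRC69 on the same strand had 8, 4 and 11 reads. SPNS3, a member of the spinster family of putative lipid transporters at chr17:4336983-4391503, had 3, 21 and 32 reads, with group means of 3.01 and 15.9. An antisense gene over SPNS3 had 10, 21 and 19 reads, and because strand use in counting is not stated, the reads of both cannot be told apart.

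CD22, TNFRSF10C, TNFRSF19, TNFSF18 and BDKRB1 encode receptors or ligands at the cell surface. CD22, an inhibitory sialic acid-binding receptor of B cells at chr19:35810164-35838258, had 3 reads in Parental 1, 150 in Resistant 1 and 153 in Resistant 2. The resistant clones were almost equal for CD22, together 42.0 times the parental level (interval 14.2 to 204.8), and its group means were 6.56 and 87.9. Of the lymphocyte markers read beside CD22, CD79A had 2, 5 and 4 reads, PTPRC had 4, 3 and 2, and CD3D had 0 in each library.

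TNFRSF10C, TNFRSF19 and TNFSF18 belong to the tumor necrosis factor (TNF) superfamily of ligands and receptors, which act in survival, death and immune signalling. TNFRSF10C is a decoy receptor for the death ligand TRAIL that lacks an intracellular domain. TNFRSF10C had 2 reads in Parental 1, 41 in Resistant 1 and 39 in Resistant 2, with group means of 4.14 and 23.0. TNFRSF19, a receptor also called TROY, had 3, 23 and 67 reads, with group means of 12.1 and 27.9. The TNFRSF19 count was higher in Resistant 2 than in Resistant 1 (ratio 2.73, interval 1.67 to 4.59).

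TNFSF18, the ligand of the receptor GITR, had 1 read in Parental 1, 57 in Resistant 1 and 26 in Resistant 2. Its parental group mean of 24.9 was not below its resistant group mean of 24.5, so TNFSF18 was the 1 gene of the 19 without a higher resistant mean (log2 ratio -0.02). The gene for its receptor, TNFRSF18, had 4, 35 and 4 reads and was thus high in Resistant 1 alone. Of the 43 genes of the TNF superfamily in the table, 21 had 3 or fewer parental reads, and these 3 were the ones that met the limits. Among all 3916 genes with 3 or fewer parental reads, 0.485% met them. The family was chosen after the 19 genes were known, so its count is only a description.

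BDKRB1, the bradykinin B1 receptor, which is induced in injured and inflamed tissue, lies at chr14:96722161-96735304. BDKRB1 had 1 read in Parental 1, 20 in Resistant 1 and 54 in Resistant 2, so Resistant 1 sat exactly on the limit. Its group means were 4.76 and 21.4.

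TMPRSS11D and TMPRSS11E encode membrane-anchored serine proteases of airway and stratified epithelia, and they were the only pair of the 19 genes within 1 Mb of each other. TMPRSS11D, at chr4:68686594-68749750 on the minus strand, had 0 reads in Parental 1, 68 in Resistant 1 and 140 in Resistant 2. TMPRSS11E, at chr4:69313167-69363322 on the plus strand, had 0, 51 and 24 reads. Both resistant clones were above the parental clone for both genes, but in opposite order: Resistant 2 was at 1.93 of Resistant 1 for TMPRSS11D (interval 1.43 to 2.61) and at 0.440 for TMPRSS11E (interval 0.259 to 0.729). Taking 3 counts as the most that a count of 0 allows in Parental 1, the lower of the resistant clones stood at least 19.5-fold higher for TMPRSS11D and at least 6.44-fold higher for TMPRSS11E, leaving aside the counting error of the resistant reads.

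The group means of the protease pair were less far apart than the libraries. TMPRSS11D averaged 23.1 parental and 59.2 resistant normalized counts (log2 ratio 1.32), and TMPRSS11E 5.95 and 21.8 (log2 ratio 1.71). A processed transcript on the opposite strand over TMPRSS11D had 33, 63 and 72 reads. The transcription starts of the 2 proteases lie 563.4 kb apart. YTHDC1, a reader of N6-methyladenosine in RNA that lies between them, had 1263, 1622 and 1564 reads, and the 6 pseudogenes between them had at most 2 reads in any library.

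ESRRG and CREB5 encode DNA-binding regulators. ESRRG, the orphan nuclear receptor estrogen-related receptor gamma and a regulator of oxidative metabolism, had 0 reads in Parental 1, 25 in Resistant 1 and 51 in Resistant 2, and its lower clone stood at least 7.17-fold higher than the 3 counts that a parental count of 0 allows. ESRRG had the lowest parental group mean of the 19 genes, 1.35 against 22.4 in the resistant group (log2 ratio 3.32). CREB5, a leucine zipper factor that binds cAMP response elements, had 3, 24 and 171 reads and group means of 13.3 and 56.4. For CREB5 most reads came from Resistant 2, at 6.67 times the level of Resistant 1 (interval 4.33 to 10.7).

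ASB2, the substrate-binding subunit of a ubiquitin ligase that targets filamins and is known from blood and muscle cells, had 2 reads in Parental 1, 102 in Resistant 1 and 94 in Resistant 2. Its resistant clones were close to each other (ratio 0.862, interval 0.644 to 1.15), and its group means were 10.4 and 58.0. A gene overlapping ASB2 on the opposite strand had 0, 9 and 11 reads. MAB21L1, a gene of eye and nervous system development that lies inside NBEA on the opposite strand, had 3, 29 and 35 reads and group means of 9.08 and 19.5. NBEA had 104, 122 and 123 reads.

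The remaining pair had the lowest resistant group means. C19orf77, now named SMIM24 and encoding a small membrane protein, had 2, 22 and 26 reads and group means of 3.03 and 14.6. AC007405.2 had 1, 23 and 23 reads and group means of 1.75 and 14.8. The table lists AC007405.2 as protein coding, but its current symbol is LINC01124 and GENCODE release 29 lists it as a long noncoding RNA, so 18 of the 19 entries are protein coding in that release.

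The promoters that were matched differed in their content of CG dinucleotides, the sites of DNA methylation. RefSeq promoters (GRCh38.p14, 250 bases before to 50 after the start) were matched for 15 of the 19 genes. Each window follows the RefSeq start, which was not matched to the hg19 gene start. A window, that of CPS1 among them, can thus belong to another start of the gene, and the start in use was not measured. That is 78.9%, under the 80% set for a check over the set, so the values are given gene by gene. Shares over other promoters are given only as a scale, and no difference of the set is claimed. The ratio of observed to expected CG was under 0.6 in 12 of the 15, and the 3 at or over 0.6 were AC007405.2, SMOC1 and ESRRG. At or over 0.6 were 49.0% of all RefSeq promoters and 34.5% of those matched for genes with 3 or fewer parental reads. The promoters with the most and the fewest CG are shown 5′ to 3′ on the strand of the gene, with each CG in capitals. The richest were AC007405.2 at chr2:170714518-170714817 on the minus strand with 38 CG, SMOC1 at chr14:69879166-69879465 on the plus strand with 24, and ESRRG at chr1:217137653-217137952 on the minus strand with 23.
AC007405.2: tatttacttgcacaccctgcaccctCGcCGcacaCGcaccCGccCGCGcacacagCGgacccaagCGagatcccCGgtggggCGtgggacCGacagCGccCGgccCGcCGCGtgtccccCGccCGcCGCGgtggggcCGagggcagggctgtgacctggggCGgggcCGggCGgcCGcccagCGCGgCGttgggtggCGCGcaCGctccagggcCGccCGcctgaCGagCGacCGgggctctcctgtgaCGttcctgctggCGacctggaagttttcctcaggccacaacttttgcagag
SMOC1: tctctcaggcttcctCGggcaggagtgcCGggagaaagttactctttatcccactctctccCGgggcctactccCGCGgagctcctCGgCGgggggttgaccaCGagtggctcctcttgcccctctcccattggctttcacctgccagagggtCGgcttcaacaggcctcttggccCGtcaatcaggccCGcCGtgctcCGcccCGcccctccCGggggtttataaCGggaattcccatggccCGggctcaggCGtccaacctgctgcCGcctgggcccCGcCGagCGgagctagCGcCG
ESRRG: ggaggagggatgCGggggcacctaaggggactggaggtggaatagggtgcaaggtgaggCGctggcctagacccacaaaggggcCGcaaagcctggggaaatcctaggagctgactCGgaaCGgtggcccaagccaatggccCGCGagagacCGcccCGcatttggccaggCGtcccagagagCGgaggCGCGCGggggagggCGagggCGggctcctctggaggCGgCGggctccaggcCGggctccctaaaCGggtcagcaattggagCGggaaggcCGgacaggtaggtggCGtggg

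At the other end, CPS1 (chr2:210593105-210593404, plus strand) had 3 CG, as did TNFSF18, TMPRSS11E (chr4:68447213-68447512, plus strand) had 2 and TMPRSS11D (chr4:67883953-67884252, minus strand) had 1. The proteases thus shared CG-poor promoters, which most matched genes with 3 or fewer parental reads also had, as well as their neighbourhood.
CPS1: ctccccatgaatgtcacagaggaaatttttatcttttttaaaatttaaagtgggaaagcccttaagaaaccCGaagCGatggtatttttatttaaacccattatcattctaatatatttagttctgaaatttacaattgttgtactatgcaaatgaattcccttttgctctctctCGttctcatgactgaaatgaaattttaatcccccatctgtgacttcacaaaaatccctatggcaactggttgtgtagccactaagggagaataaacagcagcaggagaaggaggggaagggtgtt
TMPRSS11E: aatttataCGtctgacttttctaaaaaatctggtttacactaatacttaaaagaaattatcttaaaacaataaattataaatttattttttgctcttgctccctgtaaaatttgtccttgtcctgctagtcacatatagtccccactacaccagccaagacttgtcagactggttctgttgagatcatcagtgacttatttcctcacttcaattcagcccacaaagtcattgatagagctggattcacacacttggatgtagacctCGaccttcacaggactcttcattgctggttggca
TMPRSS11D: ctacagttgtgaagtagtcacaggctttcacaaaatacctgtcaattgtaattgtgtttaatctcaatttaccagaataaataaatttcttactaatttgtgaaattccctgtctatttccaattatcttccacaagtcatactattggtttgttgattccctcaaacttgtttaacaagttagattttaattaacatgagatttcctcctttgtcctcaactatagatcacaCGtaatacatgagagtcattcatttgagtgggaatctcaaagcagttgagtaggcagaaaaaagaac

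The TATA box and an OVO site were searched on both strands of these windows. The TATA box, searched as TATAAA, was in 4 of the 15 promoters (SMOC1, CREB5, TMPRSS11E and MAB21L1). It was in 12.0% of all RefSeq promoters and in 15.1% of those of genes with 3 or fewer parental reads. The core of the OVO zinc finger site, searched as CCGTTA, was in SMOC1 alone of the 15. It was in 3.15% of all promoters and in 2.46% of those of genes with 3 or fewer parental reads. In the SMOC1 window both motifs read on the strand opposite to the gene and share the letters TA. A match is a description of the letters and not a measured site.

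The authors' group means, which include further clones, gave smaller differences than the labelled libraries. The resistant group mean was above the parental group mean for 18 of the 19 genes, at least 2-fold for 18 and at least 4-fold for 11 (with 1 added to each mean). The rule used the labelled libraries, which enter these means, so this direction is not independent of it. Over all 16974 protein-coding genes outside X and Y 0.725% had a resistant mean at least 4-fold higher and 1.01% a mean at least 4-fold lower, and among the 3916 genes with 3 or fewer parental reads 1.66% were at least 4-fold higher. The median log2 ratio of the group means was 2.05 over the 19 genes, 0.36 over the 3916 and 0.04 over all 16974. Taken from the 3 labelled libraries instead, the median over the 19 genes was 3.92 (log2 of CPM plus 0.1).

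The parental group was not silent for most of the genes. Only ESRRG and AC007405.2 had a parental group mean of 3 normalized counts or fewer, whereas 89.9% of the 3916 genes with 3 or fewer reads in Parental 1 did. Of the 19 genes, 13 had a parental mean of at least 5 and 7 of at least 10, a level that 0.664% of the 3916 reached. The 19 were chosen for reads in the resistant libraries and the 3916 were not, so the shares of the 3916 are only a scale. The other parental clones, from the group mean less the share of Parental 1, averaged above 3 normalized counts for 16 of the 19 genes, from 2.03 for ESRRG to 36.8 for TNFSF18 with a median of 11.1. TMPRSS11D, with no read in Parental 1, averaged 34.6 in the other parental clones. The description of the genes as switched on thus holds for Resistant 1 and Resistant 2 against Parental 1, and for most of the 19 it does not hold against the parental group as a whole.

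**Figure D2:**
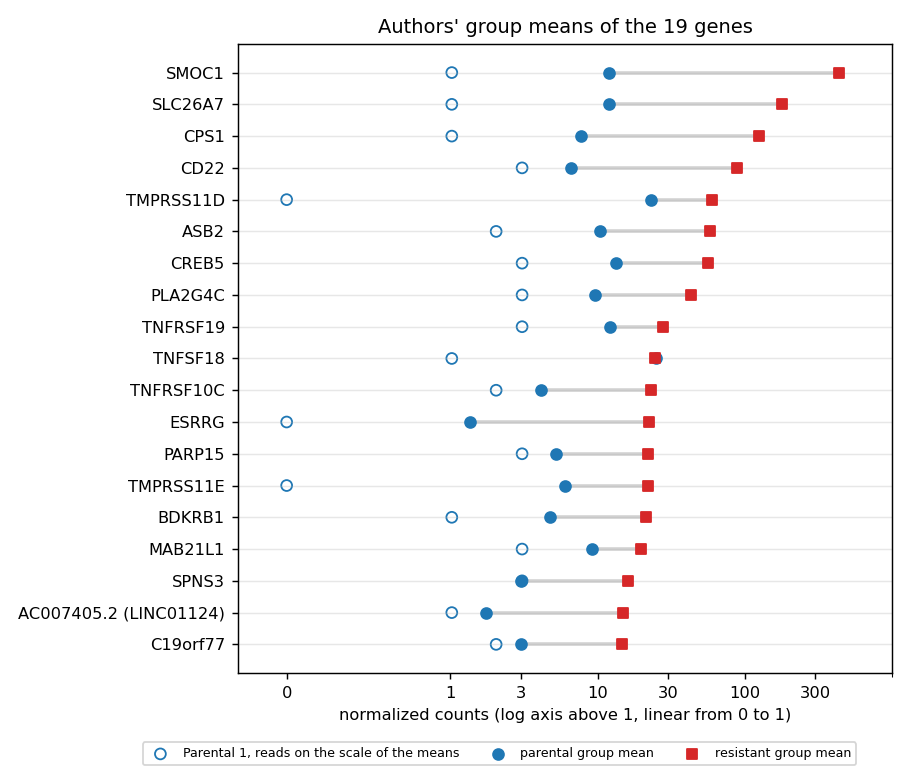
Normalized counts of the 19 genes on an axis that is logarithmic above 1 and linear from 0 to 1, with the authors' parental group mean as a filled circle, their resistant group mean as a square, and the reads of Parental 1 brought to the same scale as an open circle. The parental mean lies to the right of Parental 1 for most genes, and for TNFSF18 the parental mean of 24.9 meets the resistant mean of 24.5.

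The resistant group means were below the level of the labelled resistant libraries. The resistant group mean was divided by the mean CPM of Resistant 1 and Resistant 2, and this ratio was scaled to a median of 1 over well-read genes. For the 19 genes the ratio was 0.666 to 0.887, with a median of 0.688, and in none of them was it above 1. It was at most 0.75 in 17 of the 19, the exceptions being PLA2G4C at 0.759 and PARP15 at 0.887, against 226 of 11469 genes (1.97%) with 20 or more reads in both resistant libraries. A ratio of 0.667 is the value when the rest of a group of 3 holds no transcript, and TNFRSF10C at 0.667, TMPRSS11D at 0.668 and TMPRSS11E at 0.666 were at that value. CD22 at 0.673, SLC26A7 at 0.674, SMOC1 at 0.676 and TNFSF18 at 0.677 were next above that value, and CPS1 was at 0.717. For TNFRSF10C, TMPRSS11D and TMPRSS11E the group mean thus left little or no transcript for the rest of the resistant group. The description as switched on therefore holds for Resistant 1 and Resistant 2, and for most of the 19 it was not shown for the resistant group as a whole. Since high counts in Resistant 1 and Resistant 2 chose the genes, these ratios are a description. NAGS, the partner of CPS1, was at 0.777, and YTHDC1, between the proteases, at 0.981.

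**Figure D3:**
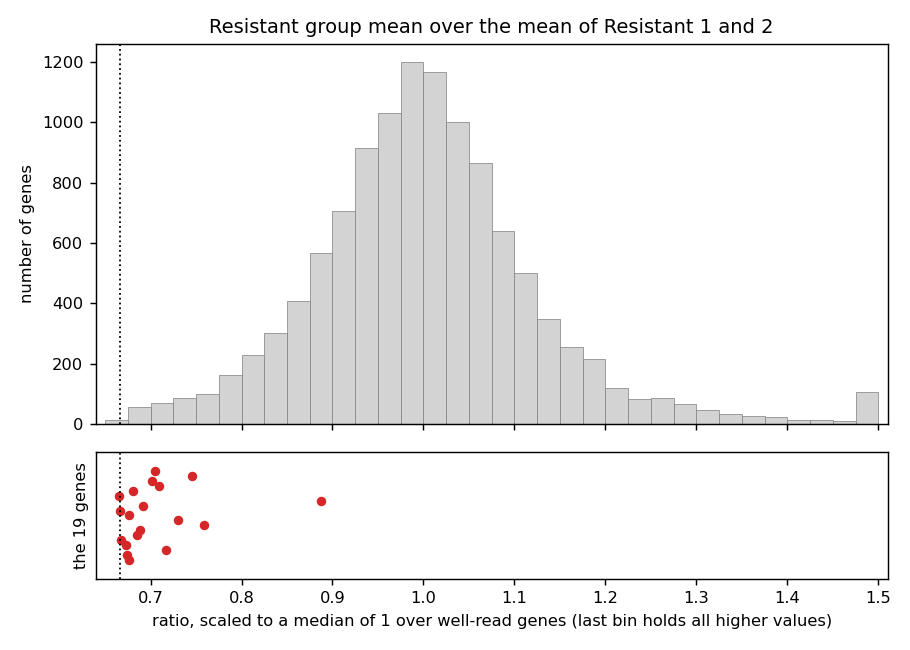
The ratio of the authors' resistant group mean to the mean of Resistant 1 and Resistant 2, scaled to a median of 1, for 11469 protein-coding genes outside X and Y (upper panel, number of genes per bin) and for the 19 genes (lower panel, height has no meaning). The dotted line marks 0.667, and 17 of the 19 genes lie at or under 0.75 at the low edge of the distribution.

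Between the resistant clones the levels differed gene by gene and without a common direction. Of the 19 genes, 11 were higher in Resistant 2 and 8 in Resistant 1, and the median log2 ratio was 0.17 with an SD over the genes of 1.21. The exact interval lay above 1 for 7 genes, below 1 for 4 and held 1 for 8. SMOC1, CREB5, PLA2G4C, TNFRSF19 and BDKRB1 were at least 2-fold higher in Resistant 2, and TNFSF18 and TMPRSS11E at least 2-fold higher in Resistant 1. Where the interval held 1, as for CD22 (0.757 to 1.20) and ASB2, a difference was not detectable at this depth. With 1 library per clone there is no replicate check on these ratios.

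**Figure D4:**
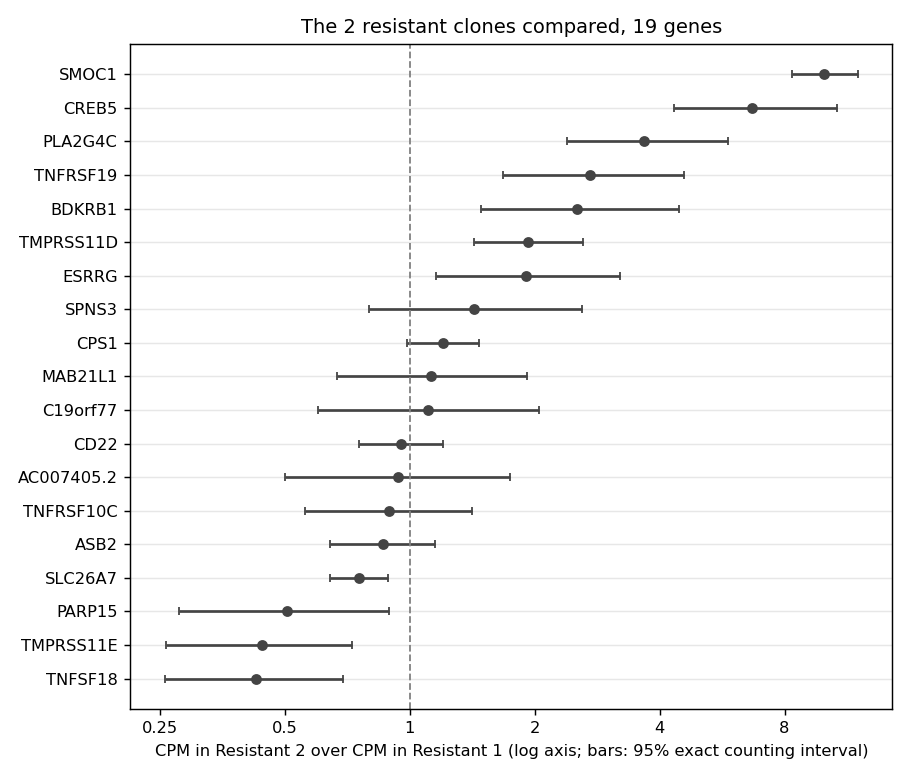
CPM in Resistant 2 divided by CPM in Resistant 1 for the 19 genes on a log axis, with bars for the 95% exact counting interval and a dashed line at 1. SMOC1 (9.96) and TNFSF18 (0.427) mark the ends of the range.

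The genes were spread over 10 chromosomes, with 3 on chromosome 14 (SMOC1, ASB2 and BDKRB1), 3 on chromosome 19 (CD22, PLA2G4C and C19orf77), 2 each on chromosomes 1, 2, 4, 8 and 13, and 1 each on chromosomes 3, 7 and 17. Chromosome 14 held 15.8% of the 19 and 3.14% of the 3916 genes that could have been chosen. The same shares were 15.8% and 8.76% for chromosome 19, and 10.5% and 1.61% for chromosome 13. The plus strand held 11 of the genes and the minus strand 8. Beside the protease pair, ASB2 and BDKRB1 were within 5 Mb of each other, which made 4 genes at that distance. No count over the 3916 genes is set beside these distances. The medians of surrounding genes lay on both sides of 0: of 12 genes with at least 5 neighbours of 20 or more parental reads within 1 Mb, the median log2 ratio of the neighbours was above 0 in both resistant libraries for 3 (TNFRSF10C, SPNS3 and AC007405.2) and below 0 in both for 2 (TNFRSF19 and SMOC1). Over these 12, the lowest median was -1.40 (around TNFRSF19, in Resistant 1) and the highest 0.37 (around C19orf77, in Resistant 2). With fewer than 5 such neighbours the medians were mostly above 0. In Resistant 1 and Resistant 2 they were 0.375 and 0.320 around both proteases and 0.331 and 0.344 around SLC26A7. CREB5 had 0.184 and 0.020, MAB21L1 0.013 and 0.270, CPS1 -0.083 and -0.003, and ESRRG 0.174 and -0.458.

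Some of the nearest relatives of the genes were also higher in the resistant clones, from parental counts above the limit. These relatives were chosen after their values were seen. BDKRB2, the constitutive bradykinin B2 receptor 11.5 kb from BDKRB1, had 16, 307 and 304 reads, 15.9 times the parental level (interval 9.70 to 28.0), with group means of 74.8 and 190.6. SPNS2, a sphingosine-1-phosphate exporter 10.6 kb from SPNS3, had 188, 986 and 1469 reads, 5.43 times the parental level (interval 4.68 to 6.33), with group means of 135.7 and 736.0. Around TNFRSF10C, the TRAIL receptor genes TNFRSF10A, TNFRSF10B and TNFRSF10D were 2.18, 1.60 and 2.46 times the parental level, from 386, 1332 and 196 parental reads. Their group means differed less, with 494.2 parental and 738.2 resistant for TNFRSF10A, 1518 and 1977 for TNFRSF10B, and 261.7 and 398.0 for TNFRSF10D. The ratio of the resistant group mean to Resistant 1 and Resistant 2 was 0.723 for BDKRB2 and 0.700 for SPNS2. Both lay near the 0.667 of a group whose rest holds no transcript, so these rises were not shown for the resistant group as a whole. The same ratio was 0.846 for TNFRSF10A, 0.898 for TNFRSF10B and 0.796 for TNFRSF10D. The neighbourhoods of TNFRSF10C and SPNS3 were among those with medians above 0 in both resistant libraries. In Resistant 1 and Resistant 2 the median log2 ratios of the neighbours were 0.319 and 0.353 around TNFRSF10C and 0.148 and 0.118 around SPNS3. Around BDKRB1 they were 0.223 and -0.336. Whether the relatives rose more than the other genes around them was not tested. TNFSF4, next to TNFSF18, had 0, 2 and 4 reads and stayed under the limit.

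**Figure D5:**
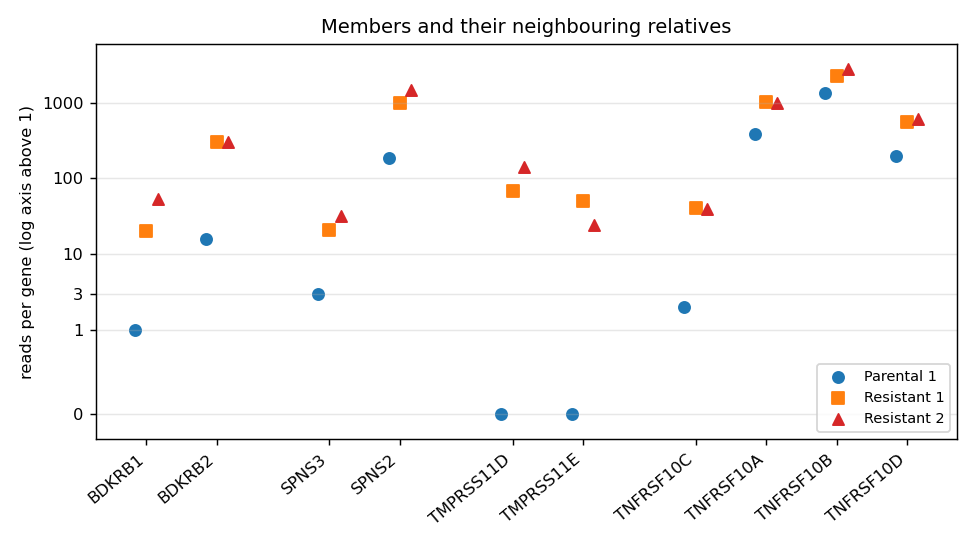
Reads per gene in Parental 1 (circles), Resistant 1 (squares) and Resistant 2 (triangles) for 5 of the 19 genes (BDKRB1, SPNS3, TMPRSS11D, TMPRSS11E and TNFRSF10C) and 5 related genes beside them, on an axis that is logarithmic above 1. BDKRB2, SPNS2 and the 3 other TRAIL receptor genes start from 16 to 1332 parental reads.

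The 19 genes came from many functions. Of 23 gene lists, 4 held any of the genes: cytokines, chemokines and their receptors held the 3 TNF superfamily genes of 76 with 3 or fewer parental reads (3.95%, against 0.485% over all), and G protein-coupled receptors (BDKRB1), solute carriers (SLC26A7) and extracellular matrix genes (SMOC1) held 1 each. The other 13 genes were in no list. The lists of gemcitabine transport and metabolism, ketone body metabolism, interferon-stimulated genes, keratins, germline genes and homeobox factors held none of the 19. In the same order, only 3, 4, 9, 48, 34 and 48 of their genes had 3 or fewer parental reads. With so few genes open to the limits and 0.485% meeting them over all, these empty lists carry little information. TNFRSF19, TNFSF18 and TNFRSF10C were read in different proportions in the resistant clones, with ratios of Resistant 2 to Resistant 1 of 2.73, 0.427 and 0.890.

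The limits cut through a continuous range. Just inside lay the 7 genes with 3 parental reads, BDKRB1 with 20 reads in Resistant 1 and PARP15 with 20 in Resistant 2. Just outside, 16 genes had 4 or 5 parental reads with 20 or more in both resistant libraries, among them IL31RA (4, 40 and 65 reads), PDE2A (4, 59 and 281), TGFBR3L (5, 118 and 157) and ZNF667 (5, 93 and 45). The other 12 were C6orf58, CNRIP1, CYGB, DDN, FGF5, GATA2, GBP6, KPNA7, NWD1, RGS7BP, SPRR2A and SYNE3. The lower resistant library had 17 to 19 reads for 6 genes, ELFN1, ENTPD8, FAM26F, KCNV1, UCHL1 and USP2. Applied to the group means, with at most 3 parental and at least 20 resistant normalized counts, the limits were met by 5 genes, of which ESRRG was the 1 shared with the 19. The other 4, named after their values were seen, were CTTNBP2, IL31RA, NRG2 and ZNF667.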

How the data were processed

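RNA-seq was analysed for 1 parental and 2 resistant libraries of 5637 clones. The authors deposited 1 table (hg19, CASAVA 1.8 in the submitters' processing notes; the aligner and the counter are not given in the sources used here) with read counts and FPKM per gene and library, and group means in normalized counts, a depth-scaled signal deposited without error or number. The deposited FPKM equal the count divided by gene length and library total within 1%. The table's 6 further columns of counts and FPKM match no labelled sample and were not used, nor were the authors' fold changes and p-values, which hold their own comparison of the groups.

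The genes were chosen by raw counts, and all of them are named. Genes just outside the limits and those between neighbouring members were named by the same rule. The members and gene lists were chosen with earlier results of these data known. CPM used TMM factors from edgeR 4.0.16, with DESeq2 1.42.0 size factors as an alternative (R 4.3.3); neither tool was used for a test, because the rule used the contrast. Ratios of reads have 95% exact (Clopper-Pearson) intervals, and 3 counts stood for a parental count of 0. Libraries were brought to the scale of the group means by the median ratio over well-read genes, separately for each library. Ratios of group means had 1 added to each mean. Relatives and partners of members were chosen after their values were seen, and the TNF superfamily after the members were known. Gene positions are those of the table, and promoters come from RefSeq on GRCh38.p14. Alternatives changed the limits, scaling, pseudocount and libraries used. Of the cell type lists, 1 marker is not reported here.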

Additional observations from a re-analysis of the deposited data

How the results depend on the processing

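Of 41 alternatives to the values reported, 15 stayed near them, 26 moved and 0 reversed. The 19 genes became 3 with 0 parental reads required, 92 with up to 10 allowed, 53 with 10 or more resistant reads, 6 with 50 or more, 12 after TMM scaling, 12 after DESeq2 scaling, 12 by FPKM limits (of which 7 were among the 19), 5 by the group means (chosen after seeing the data), and 32 to 54 with 1 resistant library left out. Without Resistant 1 the number was 54, and without Resistant 2 it was 32. The 2 genes with a parental mean of at most 3 became 0 at a limit of 1, 12 at a limit of 10, and 0 among genes with 50 or more reads. The 11 genes at least 4-fold higher in the group means became 6 with a pseudocount of 5, 18 at 2-fold and 5 at 8-fold. The median log2 ratio of 2.05 became 3.92 from the 3 libraries, 3.43 to 4.22 with 1 resistant library left out, and 3.54 with 3 parental reads as a floor (chosen after seeing the data). Genes within reach of another were 0 at 0.5 Mb and 4 at 5 Mb. The 11 genes on in 1 clone became 1 with 0 reads as off and 1 with 50 reads as on, and the 29 genes off in both clones became 8 and 16. Apart from the construction of each alternative, the cause was not tested. No paired analysis was possible because the labels do not pair a parental clone with a resistant clone. Depth limits the genes near 20 reads, and 1 parental library gives no spread.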

Other observations

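Outside the set, 9 genes met the same limits on reads but were noncoding, pseudogenes or on the X chromosome. LINC00839, a long noncoding RNA gene on chromosome 10, had 0 reads in Parental 1, 32 in Resistant 1 and 72 in Resistant 2, and its group means were 1.41 parental and 37.8 resistant normalized counts. RP11-221N13.4, a lincRNA on chromosome 12, had 1, 127 and 47 reads and group means of 3.02 and 51.9. LINC00839 was thus higher in Resistant 2 and RP11-221N13.4 in Resistant 1. MTMR8, a myotubularin-related phosphatase gene on the X chromosome, had 3, 26 and 38 reads. The others were AC003092.1, AC142293.3, CTB-167B5.2, RP11-519G16.3, RP4-742C19.12 and RP5-1121A15.1, with resistant reads from 25 to 90. The basal keratin KRT5 went the other way, with 3829 reads in Parental 1, 160 in Resistant 1 and 240 in Resistant 2.

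SPRR2A, a cornified envelope gene just outside the limits, had 5 reads in Parental 1, 63 in Resistant 1 and 110 in Resistant 2. Its parental group mean of 67.3 was above its resistant group mean of 51.7. GATA2, with 4, 91 and 68 reads, had group means of 38.4 and 62.4. Both genes, like TNFSF18, had a parental group mean far above the reads of Parental 1.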
